A study of Sus scrofa with 22 samples.

Results

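FGF10, SLC4A5, CXCL9, LIPM, KRT80 and IL21R are 6 of the 31907 genes in the deposited tables. They were chosen by their read counts in single cerebella, which split into low animals and high animals with little or nothing in between. For each gene the 22 animals were put in order of log2 CPM (CPM is the count scaled to the TMM-adjusted total on genes, and a prior count of 2 is added before the logarithm), and the order was divided at the widest step that left at least 2 animals on each side. The rule asked for a step of 1.5 log2 units or more. All 6 met it, and all 6 passed the filter on low counts. Since the counts themselves chose these genes, their low and high levels are given as a description with no test.

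The cerebella came from piglets (Sus scrofa). At 8 days of age the bile duct was tied (BDL), which stops bile from leaving the liver, or a sham operation was done (SHAM), and the animals were followed for 3 weeks. The 11 BDL animals were 7 females and 4 males, and the 11 SHAM animals were 5 females and 6 males. The labels name no breed, litter or genotype, and every animal had surgery. Body weight is a label of each animal, from 1620 to 2560, with no unit and no age at weighing. Libraries held 14811464 to 20046909 gene counts, and for each of the 6 genes the depths of the low and the high animals overlapped. Cerebellar marker genes were abundant in every library: GABRA6, the granule cell GABA-A receptor subunit, had at least 4979 counts and GFAP, the astrocyte filament gene, at least 34845. Because litters are unknown, p-values measure the spread among these animals only. In whole tissue, fewer cells of a type and less RNA per cell cannot be told apart.

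The 6 genes have unlike roles. FGF10 is a secreted fibroblast growth factor that signals through FGFR2, mostly from mesenchyme to epithelium. SLC4A5 is a sodium bicarbonate cotransporter known from the choroid plexus and kidney. CXCL9 is a chemokine that interferon gamma switches on and that draws T cells through the receptor CXCR3, and IL21R is the receptor chain for interleukin 21, which pairs with the common gamma chain. LIPM is a lipase of the acid lipase family known from differentiating keratinocytes, and KRT80 is a type II epithelial keratin. Growth factor, transporter, chemokine, receptor, enzyme and filament thus stand side by side here because of the shape of their distribution, not because of a shared pathway.

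FGF10 (ENSSSCG00000016878, chromosome 16, 28695465 to 28779953 on Sscrofa11.1) had 0 to 16 counts in 13 low animals, with a median of 7, and 121 to 173 counts in 9 high animals, with a median of 148. In CPM the low animals reached at most 0.97 and the high animals began at 6.52, a step of 2.61 log2 units or 6.09-fold. The high animals were tightly grouped, between 6.52 and 9.57 CPM (SD 0.21 log2 units, n = 9), while the low animals spread more (SD 0.99, n = 13). A RefSeq gene model without a name, LOC102161640, overlaps FGF10. Both treatments held low and high animals: 5 of 11 BDL and 4 of 11 SHAM animals were high. The lowest, median and highest values were 0.06, 0.97 and 9.53 CPM in BDL and 0, 0.52 and 9.57 CPM in SHAM, so the groups covered the same range. The 1 animal with 0 counts, SHAM replicate 9, could have held up to 0.166 CPM, the limit that 3 counts set in that library. Such limits cover counting error only.

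SLC4A5 (ENSSSCG00000027320, chromosome 3, 68733379 to 68819293) was present in every animal and differed in amount. Its 10 low animals had 37 to 86 counts (median 48) and its 12 high animals 258 to 449 (median 368.5). The step ran from 4.27 to 14.8 CPM, which is 1.77 log2 units or 3.40-fold. Within each side the spread was small, with an SD of 0.35 log2 units in the low and 0.24 in the high animals. High animals numbered 5 of 11 in BDL and 7 of 11 in SHAM. In BDL the values were 2.09 at the lowest, 4.15 at the median and 22.8 CPM at the highest, and in SHAM they were 2.27, 18.0 and 24.2. The SHAM median lay among the high animals and the BDL median among the low ones, yet the ranges overlapped almost wholly. The end of SLC4A5 overlaps MTHFD2, a mitochondrial folate enzyme gene, which had 57 to 165 counts in the low and 71 to 145 in the high animals of SLC4A5.

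CXCL9 (ENSSSCG00000032777, chromosome 8, 71665541 to 71670236) was close to silent in 10 animals, at 1 to 8 counts, and ran from 38 to 273 counts in the other 12. The step from 0.47 to 2.53 CPM is 2.19 log2 units or 4.55-fold. Unlike the high sides of FGF10 and SLC4A5, that of CXCL9 was wide, from 2.53 to 15.95 CPM (SD 0.77 log2 units, n = 12). The animal closest to the step was SHAM replicate 1, and without it the step was 2.90 log2 units. Of the high animals 8 were BDL and 4 SHAM. The lowest, median and highest values were 0.12, 4.98 and 11.46 CPM in BDL and 0.06, 0.35 and 15.95 CPM in SHAM. The highest value of all belonged to a SHAM animal, replicate 2.

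LIPM (ENSSSCG00000010444, chromosome 14, 100716038 to 100748916) was the reverse case, with most animals high. It had 26 to 77 counts in 16 animals, with a median of 46.5 counts and a range of 1.51 to 4.28 CPM. The 6 low animals were BDL replicates 1, 8 and 10, with 2, 0 and 0 counts, and SHAM replicates 2, 4 and 11, with 0, 0 and 3 counts. The step was 2.61 log2 units or 6.10-fold, from 0.15 CPM to 1.51 CPM. For the 4 animals with 0 counts the limit was 0.165 to 0.189 CPM. Low animals were thus 3 of 11 in each treatment. BDL values were 0 at the lowest, 1.88 at the median and 3.76 CPM at the highest, and SHAM values were 0, 2.74 and 4.28. The end of LIPM overlaps ANKRD22, which was near silent with 0 to 6 counts in every animal.

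KRT80 (ENSSSCG00000040636, chromosome 5, 17482454 to 17506462) was high in 4 animals only. BDL replicates 5 and 6 were at 29.6 and 27.1 CPM, from 551 and 491 counts, and SHAM replicates 3 and 8 at 21.2 and 23.2 CPM, from 325 and 418 counts. The 18 low animals ran from 12 to 93 counts, at most 5.22 CPM, which leaves a step of 1.995 log2 units or 3.99-fold. Here the high side was narrow (SD 0.22 log2 units, n = 4) and the low side broad (SD 0.80, n = 18). The high animals were 3 males and 1 female, and 2 of 11 in each treatment. The BDL median was 2.77 CPM within a range of 0.68 to 29.6, and the SHAM median 2.48 CPM within 0.66 to 23.2.

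IL21R (ENSSSCG00000007816, chromosome 3, 19447488 to 19489201) was the gene of lowest count and the one nearest the threshold. BDL replicates 1 and 9 and SHAM replicates 1 and 8 had 0 counts, and BDL replicate 3 had 1. The limit for the 0-count animals was 0.167 to 0.200 CPM. The other 17 animals had 7 to 21 counts, at 0.40 to 1.10 CPM, so the step of 1.60 log2 units or 3.02-fold rests on a few reads. High animals were 8 of 11 in BDL and 9 of 11 in SHAM. BDL values were 0, 0.63 and 1.10 CPM at the lowest, median and highest, and SHAM values were 0, 0.52 and 1.06. With a prior count of 5 in place of 2 the step was 1.003, under the threshold, while the same 5 animals stayed low.

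**Figure D1:**
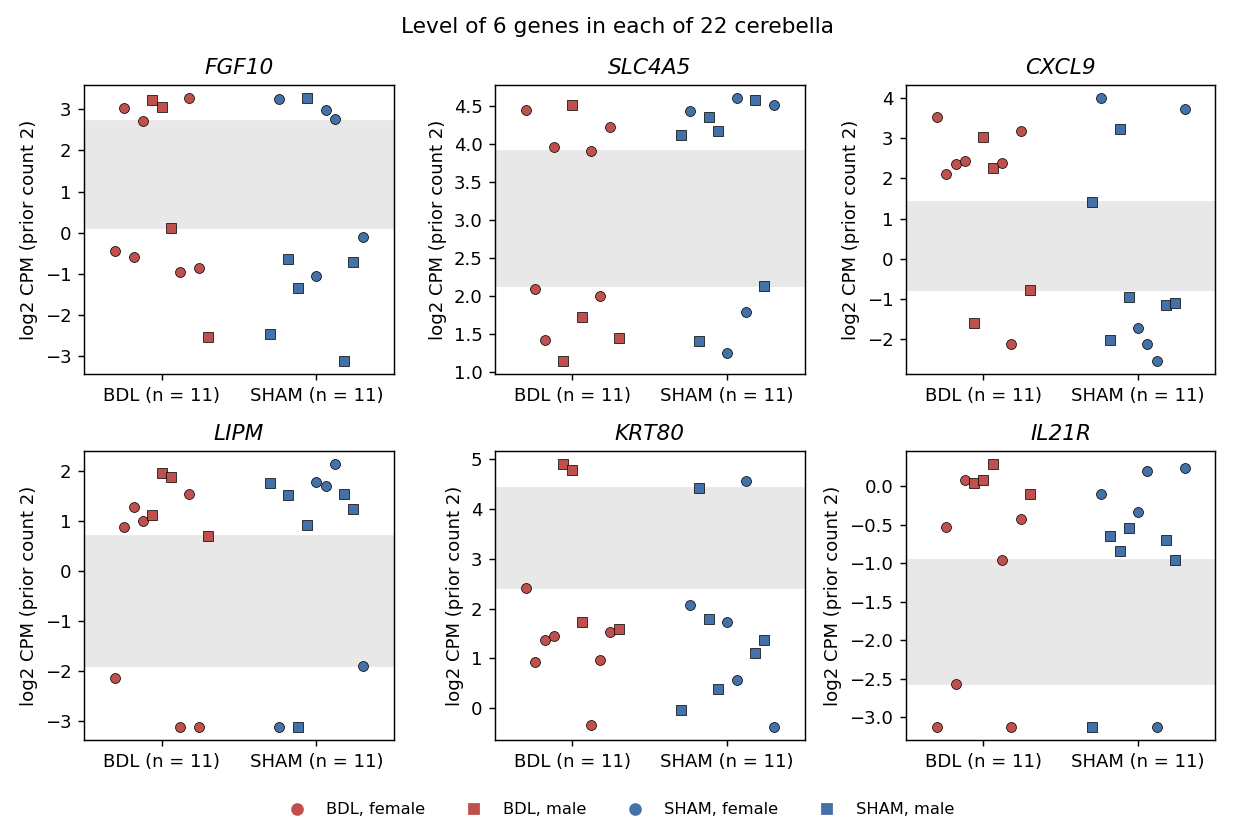
Level of each of the 6 genes as log2 CPM in 11 BDL (red) and 11 SHAM (blue) animals, with females as circles, males as squares and 1 point per animal; the grey band is the widest step between neighbouring animals. Both treatments have points above and below the band in all 6 panels, with 4 high animals for KRT80 and 5 low animals for IL21R.

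Steps of this size were rare among all genes. Of the 14994 genes that passed the count filter, 22 had one of 1.5 log2 units or more (0.147%), against a median widest step of 0.12. Just inside the threshold stood a gene without a symbol at 1.52 and, nearest of the 6, IL21R at 1.60. Just outside it stood a gene without a symbol at 1.49 and FAM163B at 1.46, each with 2 low animals. Of the 22 genes, 9 have a symbol: the 6 described here and TTR, TRIM10 and GDF15, each low in 2 animals. The remaining 13 have no symbol in the table used, and 3 of these divided the animals exactly by sex. None of the 22 divided them by treatment.

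**Figure D2:**
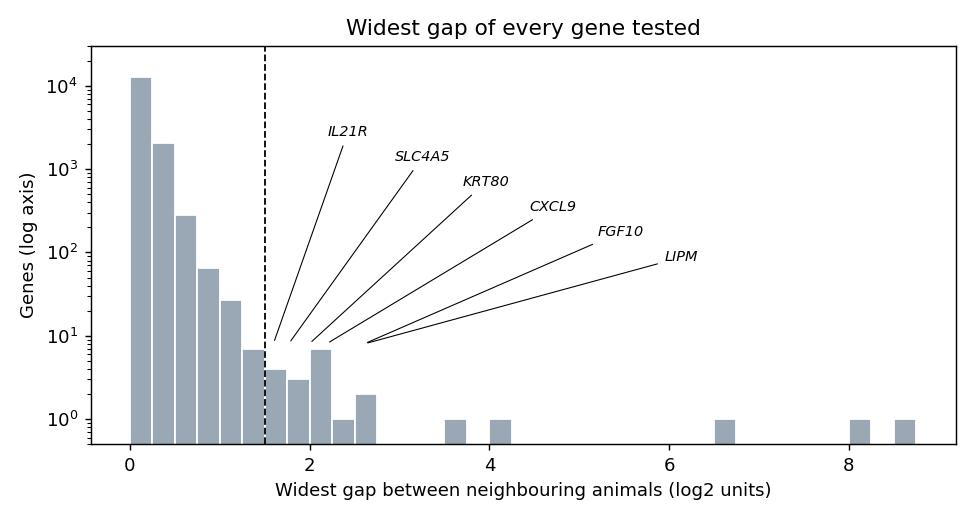
Number of genes (log axis) by the widest step between neighbouring animals in log2 units, over 14994 genes with the 6 named genes marked; the dashed line is the threshold of 1.5. The 22 genes to the right of the line are 0.147% of all genes.

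The 6 genes did not share 1 set of high animals. Over 22 animals 16 different combinations of low and high occurred. Of these, 13 were held by a single animal and the most common by 4. An animal was high for 2 to 6 of the genes, with a median of 3, and BDL replicate 6 was high for all 6. No pair of the 15 possible pairs had the same high animals. The most alike were SLC4A5 and CXCL9, with 12 high animals each: 9 were high for both, which is 75% of either set, and 7 animals were low for both.

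LIPM ran opposite to these genes in part of the animals. All 6 animals low for LIPM were high for both SLC4A5 and CXCL9, and no animal was low for LIPM together with either of them. Of the 16 animals high for LIPM, 3 were high for both SLC4A5 and CXCL9. The combination held by 4 animals was of this kind: SHAM replicates 4 and 11 and BDL replicates 8 and 10 were low for FGF10, LIPM and KRT80 and high for SLC4A5, CXCL9 and IL21R. FGF10 was high in 8 of the 16 LIPM-high animals and in 1 of the 6 LIPM-low ones. It was high in 3 of the 4 KRT80-high animals, which is 33.3% of the FGF10-high set and 75% of the KRT80-high set. All 4 animals high for KRT80 were high for LIPM, and 1 of them was high for SLC4A5 and for CXCL9.

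**Figure D3:**
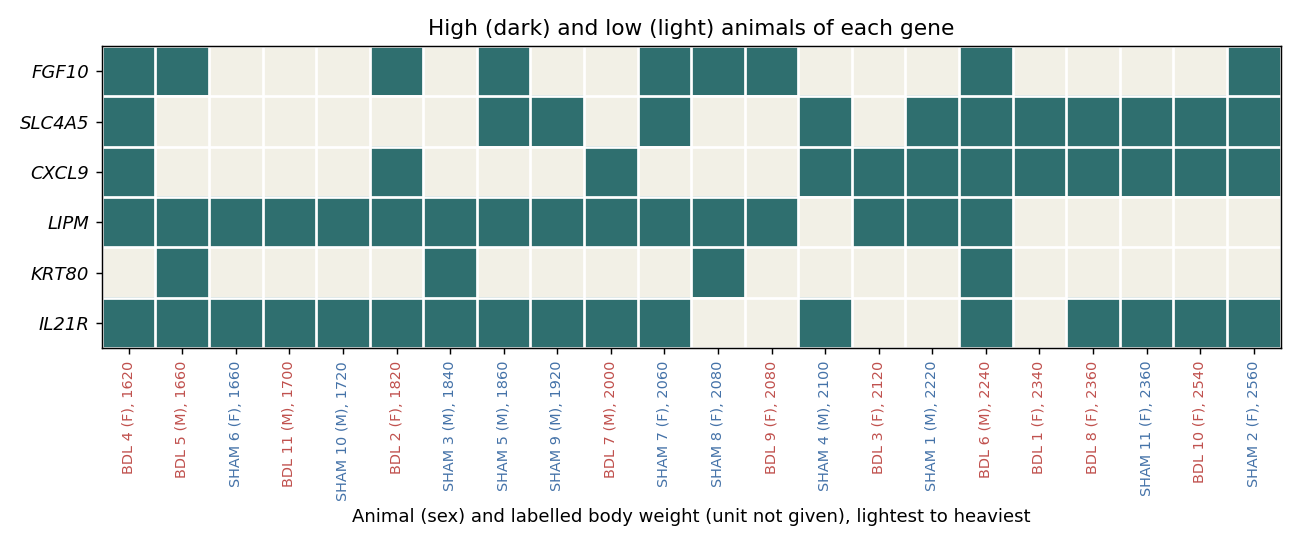
Low (light) and high (dark) state of the 6 genes in 22 animals ordered from the lightest (1620) to the heaviest (2560) by labelled weight, with BDL names in red and SHAM names in blue. The 5 heaviest animals are all low for LIPM and high for SLC4A5 and CXCL9.

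For BDL against SHAM, edgeR's quasi-likelihood test over 14994 genes called 0 of the 6 (0.0% of all genes called at an adjusted p under 0.05). FGF10 averaged 4.06 ± 4.16 CPM over the BDL animals and 3.28 ± 4.13 over the SHAM animals (mean ± SD, n = 11 each), a log2 fold change of 0.34 ± 0.83 (SE, edgeR adjusted p = 0.959). SLC4A5 averaged 10.2 ± 8.46 and 14.6 ± 9.34 CPM (-0.59 ± 0.55, edgeR adjusted p = 0.893), the lowest unadjusted p of the 6 at 0.294. CXCL9 stood at 4.88 ± 3.69 and 3.87 ± 5.99 CPM (0.23 ± 0.81, edgeR adjusted p = 0.973). The log2 fold change was -0.24 ± 0.64 for LIPM, 0.07 ± 0.73 for KRT80 and 0.07 ± 0.51 for IL21R. Each gene was low in some animals of both groups, and no estimate lay as far as 2 standard errors from 0. Leaving out 1 animal turned the sign for 4 of the genes: without BDL replicate 6 CXCL9 was at -0.14, without SHAM replicate 8 LIPM was at 0.00, and KRT80 and IL21R changed sign on leaving out any of several animals, KRT80 reaching -0.27 without BDL replicate 5 and IL21R -0.070 without SHAM replicate 8. Of all genes 744 had an unadjusted p below 0.05 in edgeR. The limma-voom fit called 0 genes and DESeq2 called 1, TPD52L1.

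Females against males gave no call among the 6 either, against 9 genes called of all tested (0.06%). KRT80 had the smallest p, with a mean of 4.16 CPM (SD 6.15) over 12 females against 9.39 CPM (SD 11.6) over 10 males (log2 difference -1.16 ± 0.72, edgeR adjusted p = 0.889). Without SHAM replicate 8, the only KRT80-high female, this difference was -1.99 (unadjusted p = 0.0039), with no call after adjustment. For CXCL9 the means were 5.82 CPM (SD 5.52) for females and 2.65 CPM (SD 3.50) for males (1.11 ± 0.83, edgeR adjusted p = 0.913), high in 8 of 12 females and 4 of 10 males. LIPM was low in 5 females and 1 male, and IL21R in 4 females and 1 male. The treatment difference of each gene was also compared between the sexes, and 0 of 14994 genes passed by edgeR (0.0%), with 689 below an unadjusted p of 0.05. The other tools, limma-voom and DESeq2, also called 0. For KRT80, BDL minus SHAM was -1.39 ± 0.90 in females and 1.62 ± 0.93 in males, a difference of -3.00 ± 1.30 (unadjusted p = 0.0317, edgeR adjusted p = 0.917). High KRT80 was found in 0 of 7 BDL females, 1 of 5 SHAM females, 2 of 4 BDL males and 1 of 6 SHAM males, so this difference turns on 4 animals. With 1 animal left out it ran from -4.35 to -1.51, the latter without SHAM replicate 8. For IL21R, BDL minus SHAM was -0.95 ± 0.65 in females and 1.19 ± 0.68 in males (difference -2.13 ± 0.94, unadjusted p = 0.0337, edgeR adjusted p = 0.917), with all 4 BDL males high.

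Labelled weight was set beside the low and high states as a description. The 6 animals low for LIPM weighed 2100, 2340, 2360, 2360, 2540 and 2560, and the 16 high ones 1620 to 2240. The 5 heaviest animals of the study were therefore all LIPM-low, and 3 of the high animals were heavier than the lightest low one. These 5 were all females. Among the 11 heavier animals (2080 or more) CXCL9 was high in 9 and SLC4A5 in 8, and among the 11 lighter ones (2060 or less) in 3 and 4. LIPM was high in 5 of the heavier and 11 of the lighter animals, and IL21R in 6 and 11. FGF10 was high in 4 and 5 and KRT80 in 2 and 2.

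A test of weight beside sex and treatment called 0 of 14994 genes in edgeR (0.0%), with 1108 below an unadjusted p of 0.05. The limma-voom fit called 0 and DESeq2 called 8, none of them among the 6. Without SHAM replicate 1 edgeR called 9 genes and without BDL replicate 4 it called 3, TAP1 and 2 without a symbol, again none of the 6. CXCL9 had the steepest slope of the 6, at 1.21 ± 0.37 log2 units per standard deviation of weight (unadjusted p = 0.00385, edgeR adjusted p = 0.493). SLC4A5 had a slope of 0.64 ± 0.25 (unadjusted p = 0.0207, edgeR adjusted p = 0.604) and LIPM one of -0.65 ± 0.38 (unadjusted p = 0.104, edgeR adjusted p = 0.718). Without BDL replicate 4, the lightest animal, the slope of SLC4A5 was 1.15 (unadjusted p = 0.000227), and it stayed short of the adjusted threshold. FGF10, KRT80 and IL21R were at -0.20 ± 0.47, -0.09 ± 0.42 and -0.11 ± 0.27. None passed after adjustment over all genes. The microglia and macrophage markers also ran with weight, all 11 tested members on the positive side (median slope 0.18, against 0.0004 over all genes). In edgeR 0 of the 11 were called with all animals. P2RY12, a purine receptor gene of microglia among the 11, was picked out after its values were seen. In edgeR with all animals it was not called (slope 0.27, edgeR adjusted p = 0.335). It was called by DESeq2 (slope 0.27, DESeq2 adjusted p = 0.02826) and by edgeR without SHAM replicate 1 (slope 0.30, edgeR adjusted p = 0.04993). The summed level of the 11 markers was 201 to 294 CPM in the LIPM-low and 132 to 290 CPM in the LIPM-high animals. Their part in the weight slopes was not tested.

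**Figure D4:**
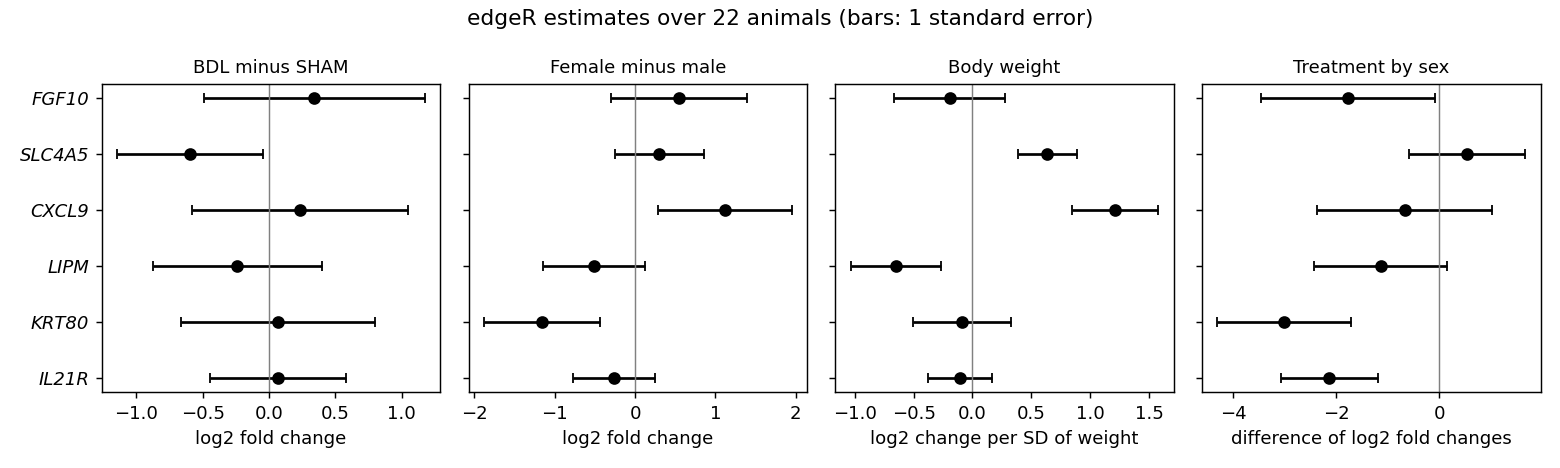
edgeR estimates for the 6 genes over 22 animals: log2 fold change of BDL minus SHAM, of female minus male, log2 change per standard deviation of weight, and the difference of the treatment effect between sexes (female minus male); bars are 1 standard error. The weight slopes of CXCL9 (1.21) and SLC4A5 (0.64) and the interaction estimates of KRT80 (-3.00) and IL21R (-2.13) lie over 2 standard errors from 0, and none of the estimates passed after adjustment.

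Several genes were divided between the CXCL9-low and the CXCL9-high animals. Of the other 14993 genes, 12 had no overlap in CPM between the CXCL9-low and the CXCL9-high animals, all of them higher in the high ones (0.08%). CXCL10, which lies 23.4 kb after CXCL9, and CXCL11 were among them, the other ligands of CXCR3. CXCL10 had 22 to 78 counts in the low and 94 to 771 in the high animals, and CXCL11 0 to 3 and 6 to 132. The nearer neighbours ART3 (3.56 kb after, Spearman 0.03) and SDAD1 (18.7 kb before, -0.14) overlapped, as did NAAA (62.3 kb before, 0.26). CXCL11 was at 0 counts in 9 of the 10 CXCL9-low animals. Over the 22 animals the Spearman correlation with CXCL9 was 0.90 for CXCL11, 0.86 for CXCL10 and 0.84 for NLRC5, a regulator of MHC class I genes. These are the 3 genes with a symbol whose pattern was most like that of CXCL9, and 15 genes in all reached 0.8. GBP1, an interferon-induced GTPase (141 to 212 counts against 259 to 1109), and HLA-DRA, an MHC class II chain (43 to 103 against 142 to 515), were divided at their own widest step into the same low and high animals.

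A list of 25 genes of CXCR3 ligands and the interferon gamma response was chosen with earlier results of these data known. Of these, 20 were tested, and 5 had no overlap, beside 12 of all 14993 genes (0.08%). The 5 were CXCL10, CXCL11, GBP1, PSMB9, an immunoproteasome subunit, and TAP1, the peptide transporter of antigen presentation. IRF1, an interferon-induced transcription factor gene, overlapped, with 118 to 190 counts in the low and 131 to 453 in the high animals (Spearman 0.83). The receptor genes IFNGR1 and IFNGR2 also overlapped. Between BDL and SHAM 0 of the 20 passed in either direction. The median log2 fold change was 0.10, against 0.0006 over all genes, with JAK1 at -0.09 ± 0.04. With weight 18 of the 20 had a positive slope (median 0.13) and 0 passed in edgeR with all animals. Without BDL replicate 4 TAP1 passed, with a slope of 0.38 (edgeR adjusted p = 0.04188). These genes are correlated over the animals and are not independent of one another. Reads of GBP1, HLA-DRA and other genes with near-identical copies may have been placed on the wrong copy or left out.

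T and NK cell markers were low throughout. CD3E, part of the T cell receptor complex, had 0 to 16 counts and was at 0 in 7 animals. The 10 measured markers summed to 5.84 to 8.42 CPM in the CXCL9-low and 7.61 to 15.3 CPM in the CXCL9-high animals, so the ranges met only at their edges, and 3 of 4 tested members had a higher median in the high animals. GNLY, the gene of a granule protein of T and NK cells, which lies outside the lists and was picked out after its values were seen, had 2 to 16 counts in the low and 20 to 67 in the high animals. Of the 11 microglia and macrophage markers 10 had a higher median in the CXCL9-high animals, with sums of 149 to 232 CPM in the low and 132 to 294 in the high. So had 13 of 15 meningeal and fibroblast markers and 3 of 11 choroid plexus markers, with sums that overlapped. The share of all genes with a higher median in the CXCL9-high animals is not given here, so these marker counts have no baseline. The part of these cells in the CXCL9 levels was not tested.

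**Figure D5:**
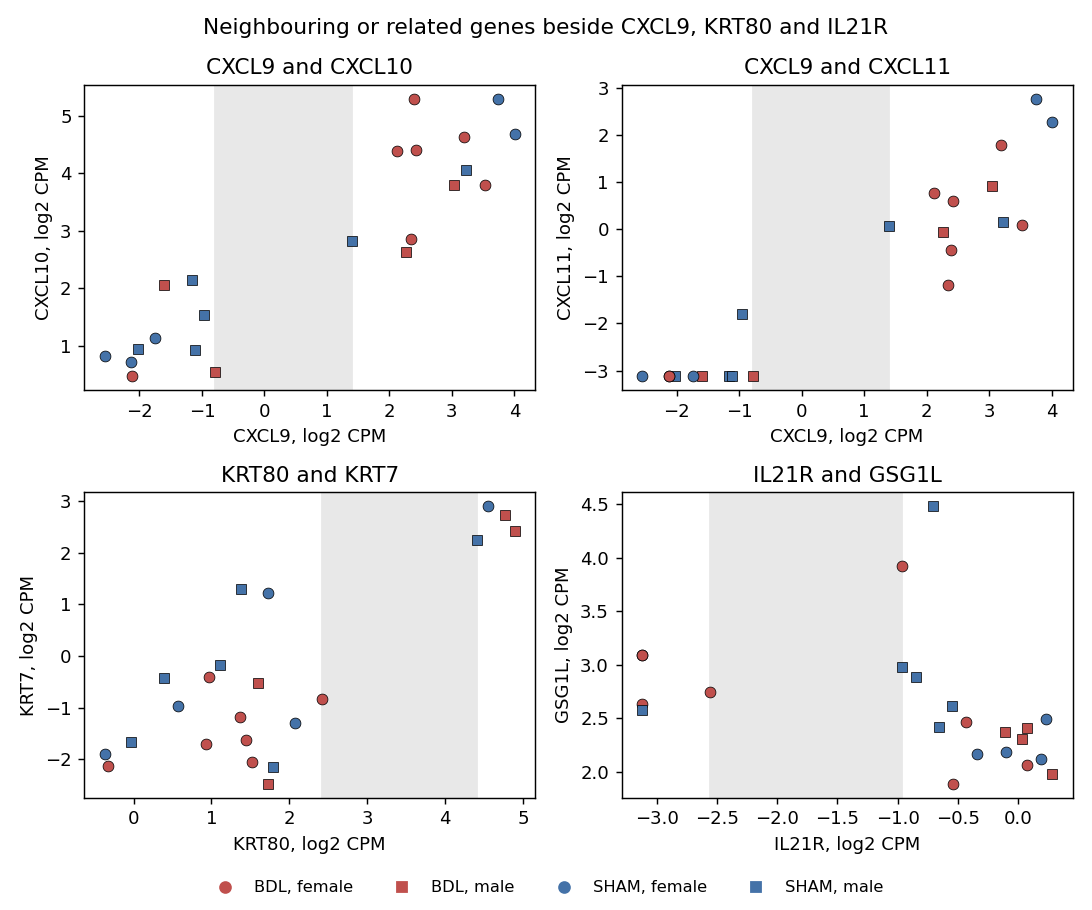
Log2 CPM of CXCL10 and CXCL11 against CXCL9, of KRT7 against KRT80 and of GSG1L against IL21R, 1 point per animal (BDL red, SHAM blue, females circles, males squares), with the step of the named gene in grey. CXCL10, CXCL11 and KRT7 have no overlap between the low and the high animals, and GSG1L overlaps.

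A keratin nearby had no overlap between the KRT80-low and the KRT80-high animals. KRT7, a keratin of simple epithelia whose gene starts 46.7 kb beyond KRT80 on chromosome 5 (17553192 to 17570582), had 97 and 118 counts in BDL replicates 5 and 6 and 71 and 132 in SHAM replicates 3 and 8. In the 18 KRT80-low animals it had 1 to 47 counts, so the sets did not overlap. KRT7's own widest step, 1.38 log2 units, lay lower than this division. SHAM replicates 6 and 10, with 36 and 47 counts, stood on the high side of that step, so KRT7 and KRT80 did not have the same high animals. KRT7 did not pass the count filter and was not tested. ATG101, an autophagy gene 56.7 kb before KRT80, had 624 to 1094 counts in the low and 681 to 867 in the high animals, and NR4A1, an immediate early gene 74.5 kb before it, had 247 to 1931 and 252 to 481. Over all genes tested, 2 had no overlap between KRT80-low and KRT80-high animals (0.0133%): MED19, a Mediator subunit gene named after its values were seen (24.1 to 31.9 against at least 32.4 CPM), and 1 gene without a symbol. The gene without a symbol (0 to 22 counts against 38 to 78) was divided at its own widest step into the same low and high animals. That step was under 1.5 log2 units. The genes most like KRT80 over the 22 animals were COA7 (Spearman 0.76), DGAT2 (0.71) and CRISPLD2 (0.63), all of which overlapped.

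The other keratins that passed the count filter overlapped between the KRT80-low and the KRT80-high animals. Of 24 listed keratins and junction proteins 8 were tested, and 0 had no overlap. KRT8, a keratin of simple epithelia, had 9 to 324 counts in the KRT80-low and 52 to 181 in the high animals, and KRT18 had 6 to 47 and 9 to 20. Keratinocyte markers summed to 18.8 to 28.0 CPM in the low and 22.5 to 24.9 in the high animals, and 3 of the 7 measured had at most 3 counts in any animal. All 11 tested microglia and macrophage markers had the higher median in the KRT80-high animals, with sums of 132 to 294 CPM in the low and 154 to 290 in the high, and 13 of 15 meningeal markers did so too. Their part in the KRT80 levels was not tested. Between BDL and SHAM 0 of the 8 tested keratin list genes passed, with a median log2 fold change of -0.01 and KRT18 at -0.47 ± 0.28 and PKP2 at -0.16 ± 0.18.

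For SLC4A5 neither its family nor its neighbours were divided in the same way. No gene of the 14993 had a range that kept clear of overlap between its low and high animals (0.0%). DCTN1 and WDR54 before it and MTHFD2 and MOB1A after it all overlapped, with Spearman correlations of 0.25, 0.00, 0.34 and 0.11. The other bicarbonate transporters SLC4A4 (4779 to 8687 counts in the low and 5682 to 8058 in the high animals) and SLC4A10 (1869 to 3751 and 2447 to 3374) were at like levels on both sides. Of 18 tested genes of bicarbonate and fluid transport 0 passed between BDL and SHAM (median log2 fold change -0.02), with SLC4A8 at -0.13 ± 0.07. Choroid plexus markers overlapped: the 14 measured summed to 347 to 1299 CPM in the low and 297 to 2000 in the high animals, and 5 of 11 tested had the higher median in the high ones. T and NK cell markers summed to 5.84 to 12.3 CPM in the SLC4A5-low and 6.15 to 15.3 CPM in the high animals, with all 4 tested members higher at the median, and 10 of the 11 microglia and macrophage markers were higher at the median too. For these marker counts too the like share over all genes is not given. The part of these cells in the SLC4A5 levels was not tested. TTR, the defining choroid plexus transcript, varied from 25 to 26722 counts over the animals. The genes most like SLC4A5 were OAS1, an antiviral enzyme gene (Spearman 0.74), ARHGAP25 (0.73) and SH3BP1 (0.73).

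FGF10 had the lowest best correlation of the 6 genes, 0.66 with a gene without a symbol. The most alike genes with a symbol were BMP2, a bone morphogenetic protein gene (Spearman 0.62), FAM221A (0.62) and FGFBP3, the gene of an FGF-binding protein (0.61). No gene reached 0.8 and none was free of overlap between the FGF10 sets (0.0%). Its neighbours PAIP1, NNT and MRPS30, from 331 to 561 kb away, overlapped. FGF10's receptor FGFR2 had 1220 to 2446 counts in the low and 972 to 2125 in the high animals, and the feedback inhibitors SPRY1 (298 to 428 and 290 to 405), SPRY2 (1328 to 1832 and 1403 to 2054) and DUSP6 (155 to 279 and 183 to 281) also overlapped. Of 20 tested genes of the pathway 0 passed between BDL and SHAM (median log2 fold change -0.03), with IL17RD at -0.33 ± 0.14 and SPRY1 at -0.15 ± 0.07. Meningeal and fibroblast markers summed to 255 to 655 CPM in the FGF10-low and 276 to 693 in the FGF10-high animals, and 13 of 15 had the higher median in the high ones. COL1A1, a collagen gene of fibroblasts, ran from 1196 to 3740 counts over all animals. How many of all genes had the higher median in the FGF10-high animals is not given here. The part of these cells in the FGF10 levels was not tested.

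LIPM was matched most closely by SVEP1, an extracellular matrix gene (Spearman 0.81), IDNK (0.78) and FAM200A (0.78), which all overlapped between its low and high animals. The genes free of overlap were 4 of 14993 (0.0267%), named here after their values were seen: VWA5A was higher in the LIPM-high animals, FGD3 and PMAIP1, a gene of the apoptosis protein NOXA, were lower, and 1 higher gene has no symbol. PMAIP1 had 141 to 198 counts in the LIPM-low and 71 to 154 in the LIPM-high animals. The lysosomal acid lipase gene LIPA (685 to 889 counts in the low and 650 to 982 in the high animals) and LPL, the lipoprotein lipase gene (15 to 75 and 6 to 89), overlapped. Of 8 tested lipase genes 0 passed between BDL and SHAM (median -0.02), with LIPA at -0.05 ± 0.04 and LPL at -0.52 ± 0.38. The neighbours PAPSS2, RNLS, ANKRD22 and STAMBPL1 overlapped. T and NK cell markers summed to 11.9 to 15.3 CPM in the LIPM-low and 5.84 to 14.3 CPM in the LIPM-high animals, and 10 of the 11 microglia and macrophage markers had the lower median in the LIPM-high animals. Of 15 meningeal and fibroblast markers 1 had the higher median in the LIPM-high animals, with sums of 255 to 655 CPM in the low and 276 to 693 in the high. No share over all genes is given beside these marker counts. The part of these cells in the LIPM levels was not tested.

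IL21R was matched by PKMYT1 (Spearman 0.69), FAM110B (0.68) and TMED1 (0.65), none free of overlap. Its neighbour GSG1L, the gene of an AMPA receptor auxiliary protein 305 kb before it, had the lowest correlation with IL21R of all 14993 genes, at -0.75. GSG1L had 88 to 151 counts in the IL21R-low animals and 56 to 400 in the high ones, so the sets overlapped. IL4R, the interleukin 4 receptor gene 37.1 kb after it, had 33 to 87 and 30 to 87 counts. GTF3C1, 7.85 kb before it, and NSMCE1 overlapped too. Free of overlap were 3 genes (0.02%), named after their values were seen: CRELD2 and ALYREF were higher in the IL21R-high animals (0.0133%), and 1 gene without a symbol was lower (0.00667%). IL2RG, the common gamma chain that pairs with IL21R, had 23 to 45 counts in the low and 19 to 51 in the high animals, and JAK3, its kinase, 180 to 302 and 179 to 356. Of 15 tested genes of this signalling 0 passed between BDL and SHAM (median 0.10), with PRDM1 at -0.65 ± 0.22 and JAK1 at -0.09 ± 0.04. B cell markers summed to 1.64 to 3.13 CPM in the IL21R-low and 1.32 to 3.48 in the high animals. All 11 tested microglia and macrophage markers had the higher median in the IL21R-high animals, with sums of 132 to 212 CPM in the low and 167 to 294 in the high. The like share over all genes is not given beside this count. The part of these cells in the IL21R levels was not tested.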

How the data were processed

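Total RNA of 22 piglet cerebella was sequenced as 150 bp read pairs, per the labels' protocols. The authors deposited raw counts for each Ensembl gene, with a separate table for every animal. The submitters' processing notes name Trim Galore, HISAT2, HTSeq, DESeq2 and Sscrofa11.1. Neither versions nor a strand setting is given there, so reads of overlapping genes may not be told apart. The closing lines that name no gene (29.9% to 34.6% of counts) were left out. Of 31907 genes 15029 matched a symbol, and positions come from a RefSeq table of the same build.

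Genes were filtered with filterByExpr (minimum count 10, minimum total 15), leaving 14994, and scaled by TMM. edgeR 4.0.16 quasi-likelihood tests (R 4.3.3, robust) used sex and treatment, with weight or an interaction added, and Benjamini-Hochberg adjustment over all genes at 0.05. limma 3.58.1 (voom) and DESeq2 1.42.0 were alternatives. Standard errors are the log2 change divided by the root of F. The tests and the splitting of animals were checked on simulated counts. For the splitting these had higher means than the low sides of FGF10, CXCL9, LIPM and IL21R, so that check does not cover such counts. The 6 genes, the 15 lists and the rules for naming genes were chosen with earlier results of these data known. By rule the named genes are the 6, for each the 3 of highest Spearman correlation and the nearest 2 on each side, 2 of smallest p per pathway list, and defining markers. Other list genes were picked outside this rule. Among them are IRF1, IFNGR1, IFNGR2, PSMB9, TAP1, KRT8, KRT23, SLC4A4, SLC4A10, FGFR2, SPRY2, DUSP6, IL2RG, JAK3 and P2RY12. A few genes that this rule names are not reported here. Low and high sets served only for description.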

Additional observations from a re-analysis of the deposited data

How the results depend on the processing

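The low and high animals of the 6 genes were the same under every setting tried: over 168 combinations of gene and setting (other prior counts, DESeq2 size factors, raw counts plus 1, at least 1 or 3 animals on each side, each animal left out) 0 animals changed side, and the step fell under 1.5 once, for IL21R with a prior count of 5. All 6 genes met the threshold whichever single animal was left out, and the combinations numbered 15 to 16. No alternative brought any of the 6 genes to an adjusted p under 0.05 for treatment, sex, weight or interaction. DESeq2 called 1 gene for treatment, 23 for sex and 8 for weight, and edgeR without the count filter called 31 for sex. Leaving out 1 animal gave 0 to 9 genes for weight: 9 without SHAM replicate 1, and 3 without BDL replicate 4, TAP1 and 2 genes without a symbol. For sex it gave 7 to 11. The sign of an uncalled estimate turned in some settings. The treatment estimate of LIPM was 0.43 with limma-voom and that of KRT80 -0.0309 with DESeq2, and the interaction estimate of CXCL9 was 1.12 with limma-voom. With no turn of sign, limma-voom put the treatment estimate of CXCL9 at 1.54 ± 1.03 and that of KRT80 at 0.87 ± 0.62. In edgeR they were 0.23 and 0.07. The cause was not tested. With 1 animal left out, treatment estimates ran from 0.03 to 0.98 for FGF10, -1.06 to -0.45 for SLC4A5, -0.14 to 0.72 for CXCL9, -0.38 to 0.0042 for LIPM, -0.27 to 0.94 for KRT80 and -0.070 to 0.25 for IL21R. Weight slopes ran from 1.08 to 1.76 for CXCL9, -0.90 to -0.46 for LIPM and 0.53 to 1.15 for SLC4A5. They ran from -0.67 to -0.03 for FGF10, -0.55 to 0.25 for KRT80 and -0.20 to 0.0086 for IL21R. Over all settings, other tools included, the weight slope of LIPM reached -1.28 and that of CXCL9 1.85. With 1 animal left out the interaction of CXCL9 ran from -2.26 to 0.28 and that of FGF10 from -4.48 to -1.18. The interaction of KRT80 ran from -4.35 to -1.51 and that of IL21R from -2.59 to -1.90. No paired analysis was possible because replicate numbers were given in deposition order and tie no BDL animal to a SHAM animal. At 0 to 21 counts, IL21R is the gene whose states depth limits most.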

Other observations

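The 3 other genes with a symbol and a step of 1.5 log2 units or more were each low in 2 animals, and these were 6 different animals. TTR, which carries thyroid hormone and is made by the choroid plexus, had 25 and 43 counts in SHAM replicates 1 and 2 and 146 to 26722 in the other 20 animals, a step of 1.87 log2 units. TRIM10, a gene near the MHC known from red cell maturation, had 3 counts in each of BDL replicates 4 and 10 and 23 to 243 in the others (2.19). GDF15, a stress-induced cytokine gene, had 0 counts in SHAM replicates 6 and 8 and 8 to 42 in the others (2.18).

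Genes outside the lists also kept clear of overlap between the CXCL9-low and CXCL9-high animals. SLA-DQB1, an MHC class II chain, had 59 to 142 counts in the CXCL9-low and 138 to 418 in the CXCL9-high animals, and BATF2, an interferon-responsive transcription factor gene, 7 to 22 and 17 to 66. In CPM neither overlapped. These genes were singled out after their values were seen, and 3 of the 12 genes without overlap have no symbol.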
